A study of Mus musculus with 4 samples.

Results

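The epidermis over the injured Achilles tendon was followed in 240 array spots, the 60 with the highest epidermal score in each of 4 tissue sections, out of 10574 spots with at least 1000 unique molecular identifiers (UMIs). The score of a spot was the percentage of its UMIs that came from 6 genes of the upper epidermis, Krt1, Krt10, Lor, Krtdap, Flg and Calm4. F592A 1 and F592A 2 were sections of TrkA F592A mice given 1NMPP1, and WT 1 and WT 2 were sections of TrkA WT mice labelled as controls. All were 10 µm frozen sections of the injury site, with the skin over it, from 12-week-old male and female mice 14 days after a punch of 0.5 mm about 2 mm above the heel bone, reached through a skin incision of 10 mm. The F592A substitution makes the receptor kinase TrkA sensitive to the inhibitor 1NMPP1, and the comparison asks how the tissue differs when this receptor is blocked. Effects of the allele and of 1NMPP1 cannot be told apart, since no label tells if WT animals were given the compound too. The material is described as 4 pooled mice per genotype with no section tied to an animal. Replicates are therefore sections, which may not be separate animals. The p-values of single genes rest mostly on a spread pooled over genes, and at most in part on a gene's own spread between sections. A spot covers several cells, so a lower share of a cell type and less RNA per cell cannot be told apart.

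The interfollicular epidermis is the layered sheet of keratinocytes between hair follicles. Basal cells, which make Krt5, Krt14 and Krt15 and are anchored to the basement membrane by hemidesmosomes, divide and move upward. Spinous cells replace those keratins with Krt1 and Krt10, and granular cells make the proteins of the cornified envelope, among them loricrin (Lor), filaggrin (Flg) and the late cornified envelope proteins. Krt2 and Krt77 are keratins of the upper layers. In mice Krt2 is prominent in the epidermis of the ear, tail and sole.

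The 6 genes that chose the spots give the size of the selection and no test. The score was highest in a spot of F592A 1 at 7.33%, and the highest scores were 6.41% in F592A 2, 3.60% in WT 1 and 5.72% in WT 2. The lowest-scoring members had 2.99%, 2.16%, 1.61% and 1.04% in F592A 1, F592A 2, WT 1 and WT 2, and the first spots outside had 2.98%, 2.13%, 1.60% and 1.02%. The border is thus a number of spots and not a gap in the scores, and it lay lower in WT. Spots scoring at least 2% numbered 122 in F592A 1, 69 in F592A 2, 24 in WT 1 and 35 in WT 2. Outside the members the median score was between 0.0148% and 0.114%.

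Depth differed with the group as well. Members held 532971 and 574706 UMIs in the F592A sections, against 260787 and 213127 UMIs in the WT sections. Their median was 7432 and 7693.5 UMIs per spot in F592A, against 3704.5 and 3417.5 in WT, whereas the median over other spots was 5457 and 6516.5 in F592A, against 6220.5 and 8330 in WT. Mitochondrial genes gave 4.09% and 3.91% of member UMIs in F592A, against 6.21% and 7.52% in WT. WT 2 also stood apart in sex-linked RNA, with 76 UMIs of Xist, a female-specific transcript, in its members and none in the members of the other sections. Y-linked genes gave 138 and 149 UMIs in members of F592A, against 56 in WT 1 and 1 in WT 2. The part of sex in the group differences was not tested. At most 5 barcodes of members were shared by any pair of sections, as array positions recur between slides.

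The spots lay at the rim of the tissue more often than other spots did, a description with no test. In F592A 1, 56 of the 60 members lay in a piece of 1231 tissue spots and the other 4 in a second piece of 1605. In F592A 2, 58 lay in a piece of 1222 and the other 2 in a piece of 1485. In WT 1 all lay in 1 piece of 3047, in 17 groups of touching spots, the largest of 11. In WT 2, 54 members filled a detached piece of 55 tissue spots, and the other 6 lay on the main piece. Positions with fewer than 6 tissue neighbours were held by 22 and 17 of the 60 members in F592A, against 30 and 31 in WT, while 11.5% to 13.3% of other spots had such a position. Between 51 and 59 of the 60 members of a section touched another member.

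**Figure D1:**
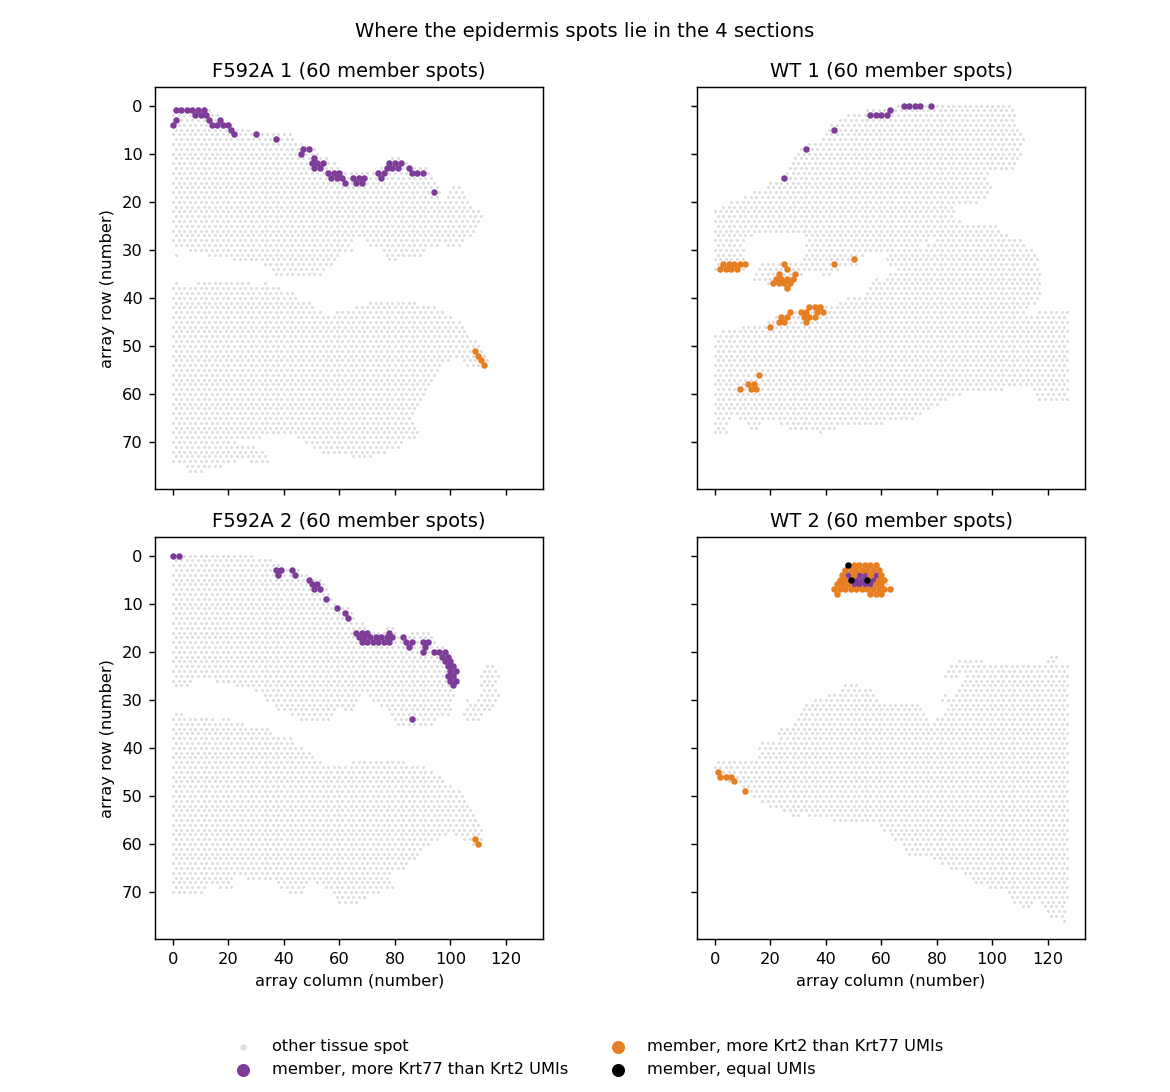
Array row and column of each tissue spot (grey) and of the 60 epidermis spots of each section, coloured by whether Krt77 or Krt2 gave more UMIs in the spot. The Krt77 colour covers 56 and 58 spots of the F592A sections on the left and 13 and 11 spots of the WT sections on the right, and in WT 2 it lies inside the detached piece.

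Markers that the rule did not use were those of epidermis. By fold over the other spots (20 CPM, the count scaled to a common library size, added to both), Krt77 led with 66.9-fold, from 57.3 to 94.2-fold over the 4 sections. Lce1m, a late cornified envelope gene, was 39.9-fold higher in the members, Krt15, a basal keratin, 28.9-fold, Krt5 21.2-fold and Krt14 19.4-fold. The list of the 20 leading genes also held Dmkn, Sbsn and Perp of the differentiating layers, Col17a1 of the hemidesmosome, and the envelope genes Flg2, Crct1, Lce1a1, Lce1a2 and Asprv1. The gene that varied most among them was Krt2, at 34.1-fold in F592A 1, 4.43-fold in F592A 2, 15.3-fold in WT 1 and 128-fold in WT 2. At the other end stood genes of connective tissue, such as Postn at 0.162 and Thbs4 at 0.178 of the level outside. These folds describe the selection and carry no test, since a spot chosen for one epidermal gene is rich in others.

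Genes of other skin structures were low in the sums, apart from those of the sebaceous gland in WT 1. Hair shaft and inner root sheath genes gave 0.00769%, 0.0746%, 0.0920% and 0.0235% of member UMIs in F592A 1, F592A 2, WT 1 and WT 2, and 1 spot of F592A 2 had over 1% of them. In the rest of the sections, in the same order, the hair genes gave 0.0176%, 0.0429%, 0.0357% and 0.0260%. Outer root sheath and bulge genes gave 0.0163%, 0.0200%, 0.0667% and 0.0277% of member UMIs, against 0.0289%, 0.0350%, 0.0246% and 0.0217% in the rest. Sebaceous gland genes gave 0.0578% and 0.0485% in F592A, against 0.509% in WT 1 and 0.0441% in WT 2. In WT 1, 5 member spots had over 1% of sebaceous UMIs, up to 3.25%, and 0 spots of the other sections did. Melanocyte genes summed to at most 20 UMIs in any section and neutrophil genes to at most 3. The markers thus went with the label of epidermis, with gland genes in part of WT 1. Follicle genes exceeded the rest of the section on both lists in WT 1. They did so on the hair list in F592A 2 and on the outer root sheath list in WT 2. Dermal genes were present in each section. Fibroblast genes gave 1.96% and 2.38% of UMIs in F592A, against 5.65% and 5.05% in WT. That share exceeded the spot's own epidermal score in 6 and 23 of 60 spots in F592A, against 55 and 55 of 60 in WT. The fibroblast share was 1.74% and 1.95% even in the 20 highest-scoring spots of F592A, against 3.54% and 3.92% in those of WT.

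With distance the epidermal signal faded within 2 grid steps. At 1 step from the nearest member the 6 rule genes gave 1.94% and 1.32% of UMIs in F592A, against 0.928% and 0.423% in WT, and at 2 steps 0.682% and 0.610%, against 0.388% and 0.0768%. Basal genes reached farther in F592A 1, F592A 2 and WT 2, with 0.869%, 0.979% and 1.04% at 2 steps, against 0.163% in WT 1. Sebaceous genes had their peak outside the members in F592A 1, at 0.570% of UMIs at 2 steps, in F592A 2, at 0.225% at 1 step, and in WT 2, at 0.592% at 1 step. WT 2 had 11 spots at 1 step, against 103 to 107 in the other sections, and most of its members filled a piece of their own.

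**Figure D2:**
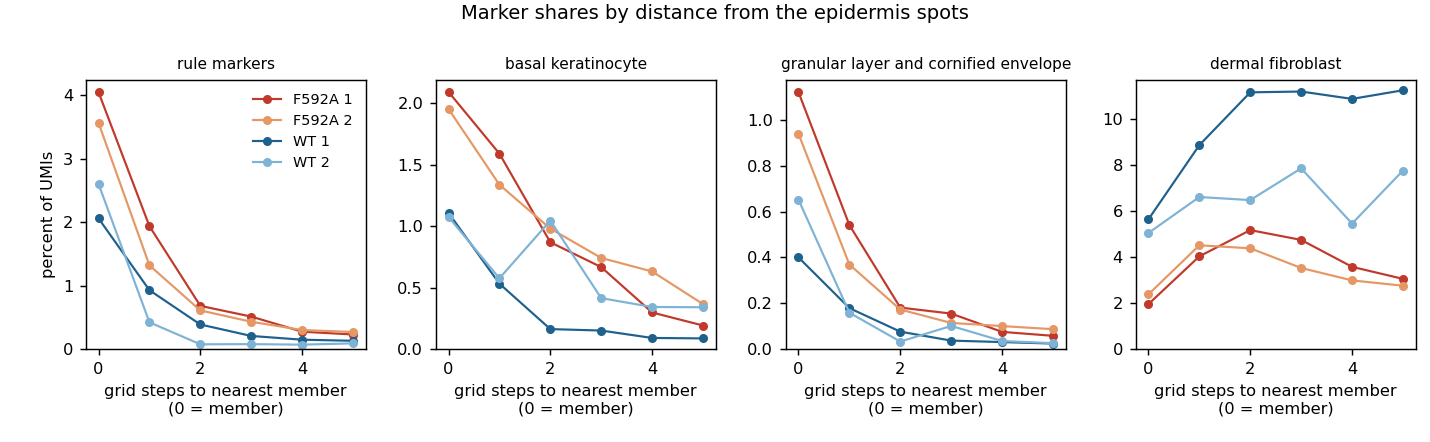
Percent of UMIs from 4 marker lists (vertical axes from 0) in epidermis spots (step 0) and in spots 1 to 5 grid steps away, 1 line per section. The rule markers drop within 2 steps in each section, and the dermal fibroblast share is higher in both WT sections than in both F592A sections at each step.

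The upper-layer keratins divided the spots into 2 kinds. In the spots with at least 10 UMIs of both keratins together, Krt77 gave a median of 100% of them in F592A 1 and in F592A 2, against 0% in WT 1 and 29.2% in WT 2. Krt77 gave more UMIs than Krt2 in 56 and 58 of the 60 spots of the F592A sections, against 13 and 11 of the WT sections, and Krt2 gave more in 4 and 2 spots of F592A, against 47 and 46 of WT. The remaining 3 spots of WT 2 had equal counts. This division was made after the values were seen. Krt2 had at least 1 UMI in 15 and 7 member spots of F592A, against 52 and 60 of WT, and Krt77 in 58 and 59 spots of F592A, against 29 and 54 of WT. Both keratins were also present outside the members, Krt2 in 42.4% and 16.9% of spots in F592A, against 69.8% and 29.6% in WT. Krt77 was found there in 52.4% and 65.9% of spots in F592A, against 14.5% and 17.5% in WT. A single UMI is therefore not read as expression here.

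The kinds lay in different places except in WT 2. In F592A 1 the nearest spots of either kind were 33 grid steps apart, in F592A 2 25 steps and in WT 1 18 steps. In WT 2 they touched, and the 11 spots with more Krt77 lay within 3 rows of the detached piece, where the median spot was 1 step from one of the other kind. The 4 spots led by Krt2 in F592A 1 lay together on the other piece of tissue from its 56 spots led by Krt77. The same held for the 2 spots of F592A 2.

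**Figure D3:**
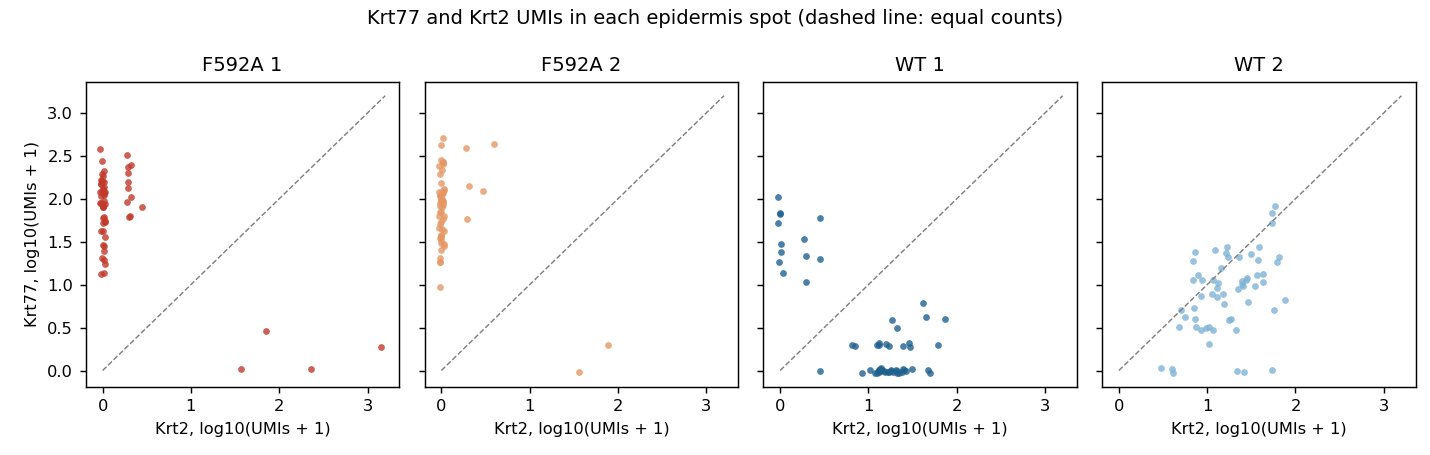
Krt77 against Krt2 UMIs of each epidermis spot, both as log10(UMIs + 1), with points shifted slightly at random to separate ties and a dashed line at equal counts. In F592A 1, F592A 2 and WT 1 the spots lie near an axis, and in WT 2 most hold both keratins.

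Summed over members, Krt77 gave 66.8% and 83.3% of the UMIs of Krt1, Krt2 and Krt77 in F592A, against 27.8% and 30.8% in WT. The groups did not overlap, with means of 75.0 ± 11.7% in F592A and 29.3 ± 2.09% in WT (SD, n = 2 each). This share was added after the data were seen and includes Krt1, a gene of the rule, so it is a description with no test. Krt2 gave 17.8% and 1.37% in F592A, against 50.3% and 56.3% in WT, and Krt1 15.4% and 15.3%, against 21.9% and 12.9%. A single spot of F592A 1 held 1347 of the 1680 Krt2 UMIs of its section, and without it the Krt77 share of F592A 1 was 80.1%. Among spots scoring 2 to 3%, a window added after the data were seen so that the sections are alike in score, Krt77 gave 74.3% and 81.2% in F592A, against 37.4% and 28.5% in WT. Each UMI is 1 captured RNA end, so these shares do not depend on transcript length.

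The kinds also differed in other genes, among them genes of the rule. Flg, Lor, Krtdap and Krt10 helped to choose the spots, and a spot low in some of them could enter by being high in another, so their values describe the selection and support nothing. Flg is the gene of filaggrin, which bundles keratin filaments in the granular and cornified layers. Flg gave 158 and 114 UMIs per 100 of Lor in the Krt2-led spots of F592A 1 and F592A 2, against 3.18 and 4.49 in their Krt77-led spots. In WT 1 it was 24.9 in Krt2-led and 1.31 in Krt77-led spots, and in WT 2 21.4 and 4.43. Outside the rule, Aqp3, a water and glycerol channel of keratinocytes, was higher in Krt2-led spots in each section, with a fold of 1.71 to 6.65 (200 CPM added to both). Genes of the extracellular matrix were higher there too, Col3a1 with a fold of 1.33 to 3.47, Postn 1.32 to 3.00, Fn1 1.41 to 2.43, Bgn 1.3 to 3.02 and Col11a1 1.34 to 2.47, and so was Lars2 with 1.53 to 4.99. Sbsn and Krtdap, secreted proteins of the differentiating layers, and Krt80 were lower there in each section, Sbsn at 0.297 to 0.670 and Krtdap at 0.330 to 0.619 of their level in Krt77-led spots. The basal keratin Krt5 stood at 17.8 and 39.6 UMIs per 100 of Krt10 in Krt2-led spots of F592A and 30.9 in those of WT 1, against 88.2, 78.1 and 113 in the Krt77-led spots of the same sections. In WT 2 the ratio was 33.3 and 33.5. The fibroblast list gave 2.25% of UMIs in the Krt2-led and 1.92% in the Krt77-led spots of F592A 1, and 4.6% and 2.32% in F592A 2. It gave 7.07% in the Krt2-led and 2.19% in the Krt77-led spots of WT 1, and 4.89% and 5.03% in WT 2. The spots led by Krt2 in F592A are 6 in all, and no test was made between kinds that were defined on these counts.

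The promoters of Krt77 and Krt2, which defined the kinds, and of Flg, the gene with the highest fold between them when genes are ranked by their lowest section, are shown as the first 250 bases of the RefSeq window around each annotated start (build GRCm38.p6, which shares its coordinates with mm10). Krt2 (chr15:101810689-101818956), Krt1 (chr15:101845426-101850786) and Krt77 (chr15:101858731-101869706) lie next to each other in a cluster of keratin genes. Flg lies at chr3:93273546-93293689, in the cluster that also holds Lor and the late cornified envelope genes. Capitals mark the letters TATAAA (the core of a TATA box) and TGANTCA (the AP-1 motif, where N is any base), both searched on both strands and not overlapping each other.
Krt77 (chr15:101869706-101869955, minus strand): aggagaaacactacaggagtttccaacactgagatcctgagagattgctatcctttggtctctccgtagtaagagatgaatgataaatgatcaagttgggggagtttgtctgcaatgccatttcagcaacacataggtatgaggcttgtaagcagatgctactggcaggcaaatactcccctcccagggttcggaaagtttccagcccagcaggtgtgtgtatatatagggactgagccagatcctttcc
Krt2 (chr15:101818170-101818419, minus strand): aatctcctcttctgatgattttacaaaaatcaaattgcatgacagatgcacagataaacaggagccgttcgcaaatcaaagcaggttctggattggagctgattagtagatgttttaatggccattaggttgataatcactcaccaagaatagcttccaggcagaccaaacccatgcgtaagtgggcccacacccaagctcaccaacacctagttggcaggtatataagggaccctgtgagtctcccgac
Flg (chr3:93273296-93273545, plus strand): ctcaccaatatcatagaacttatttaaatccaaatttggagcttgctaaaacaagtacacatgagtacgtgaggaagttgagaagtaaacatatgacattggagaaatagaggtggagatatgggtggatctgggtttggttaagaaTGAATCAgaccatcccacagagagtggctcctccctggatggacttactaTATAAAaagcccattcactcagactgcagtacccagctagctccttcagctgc
The Flg window held 1 exact match of each motif, and those of Krt77 and Krt2 held neither. Other TATA-like letters, present in both of these, were not searched for, so absence of a TATA box is not read from this. The Krt2 window lies inside the span given above for its gene. TATAAA was found in 12.4% and TGANTCA in 6.75% of 32851 promoter windows of the same length. A match in a window is a description of its letters.

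Compared between the groups by edgeR's quasi-likelihood test on the sums of 60 spots, few genes passed. Of 6992 genes tested, 32 passed at a Benjamini-Hochberg adjusted p under 0.05 (0.458% of those tested), 3 higher and 29 lower in F592A (0.0429% and 0.415%), and 996 had an unadjusted p under 0.05. The genes that rose in F592A were Krt77, the envelope gene Lce1c and Wnt10a, a Wnt ligand of the epidermis. Of the genes that fell, Col1a1, Col1a2 and Dcn were on the list for dermal fibroblasts, Tnmd and Fmod on that for tenocytes, Car3 on that for adipocytes and Hba-a1 on that for red blood cells. Both sections of F592A stood above both of WT in 23.3% of genes and below them in 22.5%, so that separation of the 4 values is common here. The median log2 fold change (F592A over WT) was −0.01.

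Krt77 had 12162 and 11995 CPM in F592A 1 and F592A 2, against 2396 and 3725 CPM in WT 1 and WT 2. Both F592A sections were far above both WT sections, with a mean of 12078 ± 118 CPM in F592A and 3061 ± 940 CPM in WT (SD, n = 2 each). The log2 fold change was 1.98 ± 0.27 (SE; edgeR, adjusted p = 0.0201). Among spots scoring 2 to 3% it was 1.24 ± 0.23 (edgeR, adjusted p = 0.362), so the call was lost there. The call was also lost with the score of the lowest F592A 1 member as one floor for all sections (1.13, edgeR, adjusted p = 0.20). That floor left 60, 33, 2 and 10 spots in F592A 1, F592A 2, WT 1 and WT 2. In Krt77-led spots alone the log2 fold change was 0.95 ± 0.32, given without a test since Krt77 helped to define these spots. Without WT 1 the log2 fold change was 1.70 and without WT 2 it was 2.36. The rise was not particular to the epidermis spots. In the fit with the rest of the sections, Krt77 had 152 and 201 CPM in the rest of F592A, against 17.2 and 17.6 in the rest of WT. The log2 difference was 3.29 in the rest and 2.13 in the members (interaction −1.19 ± 0.40, edgeR, adjusted p = 0.146).

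Lce1c had 1015 and 867 CPM in F592A, against 255 and 272 CPM in WT, with no overlap. Its log2 fold change was 1.84 ± 0.29 (edgeR, adjusted p = 0.0330), and the call was lost in Krt77-led spots (1.74, adjusted p = 0.207), among spots scoring 2 to 3% (1.12, adjusted p = 0.602) and without either F592A section (adjusted p = 0.416 without F592A 1 and 0.162 without F592A 2). Wnt10a had 46 and 41 UMIs in F592A, against 2 and 1 in WT. Its share of UMIs was 12.4 times as high in F592A as in WT, with a 95% interval of 4.11 to 61.3 that covers counting error only (edgeR, adjusted p = 0.0357). The Wnt10a call was lost in Krt77-led spots (log2 fold change 7.55 ± 1.93, edgeR, adjusted p = 0.240) and without F592A 1. It is too low for the naming rule and is given because it was 1 of 3 genes that rose. The genes next in p were higher in both F592A sections and did not pass. Wnt7b, another Wnt ligand of keratinocytes, had 185 and 157 CPM in F592A, against 57.1 and 36.6 in WT (edgeR, adjusted p = 0.0679). Tap1, which carries peptides to class I molecules, had 224 and 228 CPM, against 83.5 and 62.7 (adjusted p = 0.0697), and the class I gene H2-Q7, a member of a family of near-identical genes, 180 and 148 CPM, against 57.1 and 36.6 (adjusted p = 0.0697).

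Basal keratinocyte genes were at higher values in F592A and none passed. All 8 of the list had a positive log2 fold change, with a median of 0.66. Krt5 had 9106 and 8425 CPM in F592A, against 5002 and 4875 CPM in WT, a log2 fold change of 0.83 ± 0.23 (edgeR, adjusted p = 0.132). Krt14 had 5261 and 4156 CPM, against 3587 and 2879 (0.54 ± 0.26, adjusted p = 0.375), and Lamb3, a chain of the basement membrane's laminin, 162 and 150 CPM, against 57.1 and 26.1 (1.86 ± 0.41, adjusted p = 0.0739). As a share of member UMIs the basal list gave 2.09% and 1.95% in F592A, against 1.11% and 1.07% in WT (exact two-sided permutation test, p = 0.3333, the smallest possible). In Krt77-led spots its median log2 fold change was 0.31, and among spots scoring 2 to 3% it was 0.23. Hemidesmosome and basement membrane genes had 9 of 10 values above 0 with a median of 0.44, and none passed.

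Of 10 spinous genes 7 had a higher value in F592A, and 1, Krt77, passed. Krt2 had 3243 and 197 CPM in F592A, against 4330 and 6819 CPM in WT. Both F592A values were below both WT values, but the F592A sections differed more from each other than F592A 1 did from WT, and the log2 fold change of −1.70 ± 0.86 did not pass (edgeR, adjusted p = 0.405). Sbsn had 6923 and 6377 CPM, against 2791 and 3281 (1.13 ± 0.24, adjusted p = 0.0699). Among the rule genes, given without a test, Krt10 had 13048 and 10987 CPM in F592A, against 9987 and 14275 CPM in WT, and Flg 1154 and 712, against 866 and 1118. These levels overlapped. Lor had 13716 and 12477 CPM, against 6014 and 6981, and Krtdap 7411 and 6680, against 3029 and 3015. Lor per 100 Krt10 UMIs was 105 and 114 in F592A, against 60.2 and 48.9 in WT.

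Of 17 granular and envelope genes 12 had a higher value in F592A, with a median log2 fold change of 0.78, and 1, Lce1c, passed. The late cornified envelope cluster gave 0.855% and 0.679% of member UMIs in F592A, against 0.238% and 0.341% in WT, and 12 of its 14 tested genes had a positive log2 fold change, with a median of 1.14. Lce1m had 2801 and 2558 CPM, against 914 and 1484 (1.16 ± 0.30, edgeR, adjusted p = 0.110), and Lce1g went the other way with 46.3 and 54.0 CPM, against 141 and 88.8 (−1.20 ± 0.37, adjusted p = 0.173). Members of this cluster are near copies of each other, and reads can be split between them. Among spots scoring 2 to 3% the cluster's median was 0.27. Ivl, another envelope gene, had 73.4 and 76.6 CPM in F592A, against 70.3 and 41.8 in WT (0.40 ± 0.38, adjusted p = 0.694). Lipid barrier genes, which make the ceramides between cornified cells, had 10 of 14 values above 0 with a median of 0.34, and none passed.

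Keratins of wounded or overgrowing epidermis were low in both groups. Krt17 had 189 and 204 CPM in F592A, against 180 and 83.6 in WT (edgeR, adjusted p = 0.538), and Krt6a 46.3 and 52.2, against 154 and 15.7 (adjusted p = 0.603). Krt16 gave 39 and 6 UMIs in F592A, against 2 and 2 in WT, too few for the test. The wound list as a whole gave 0.0726% and 0.0440% of UMIs in F592A, against 0.0533% and 0.0178% in WT, and the groups overlapped (exact two-sided permutation test, p = 0.6667). Cell cycle genes gave 0.0396% and 0.0383%, against 0.0460% and 0.0333%, which overlapped, and none of 10 passed.

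Other signalling and immune genes of the epidermis were described by list. All 6 tested genes for epidermal cytokines and their regulators had a positive log2 fold change, with a median of 1.19, and none passed. Ccl27a, a chemokine of keratinocytes that draws T cells to skin, had 301 and 350 CPM in F592A, against 127 and 83.6 in WT (1.61 ± 0.33, edgeR, adjusted p = 0.0697). The files hold more than 1 entry under this symbol, and reads may be split between them. Nfkbiz, a regulator of NF-κB targets, had 94.6 and 71.4 CPM, against 8.79 and 26.1 (adjusted p = 0.0858). Langerhans cell and class II genes gave 0.240% and 0.231% of UMIs in F592A, against 0.126% and 0.146% in WT, with all 5 log2 fold changes above 0 and a median of 0.70. Cd207, the Langerhans cell lectin, had 36.7 and 34.8 CPM, against 13.2 and 26.1 (adjusted p = 0.496). Proteases and inhibitors of shedding had all 10 values above 0 with a median of 0.72, ligands and receptors of the EGF receptor family all 8 with 0.36, and Notch genes 6 of 7 with 0.31. None of these passed. Epidermal transcription factors had 9 of 12 above 0, with Klf4 at 932 and 917 CPM in F592A, against 501 and 1426 in WT.

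Ngfr, a receptor for neurotrophins, had 29.0 and 29.6 CPM in F592A, against 30.8 and 41.8 in WT (−0.29 ± 0.46, edgeR, adjusted p = 0.830). UMI counts do not show the F592A substitution, so the genotype was not checked.

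**Figure D4:**
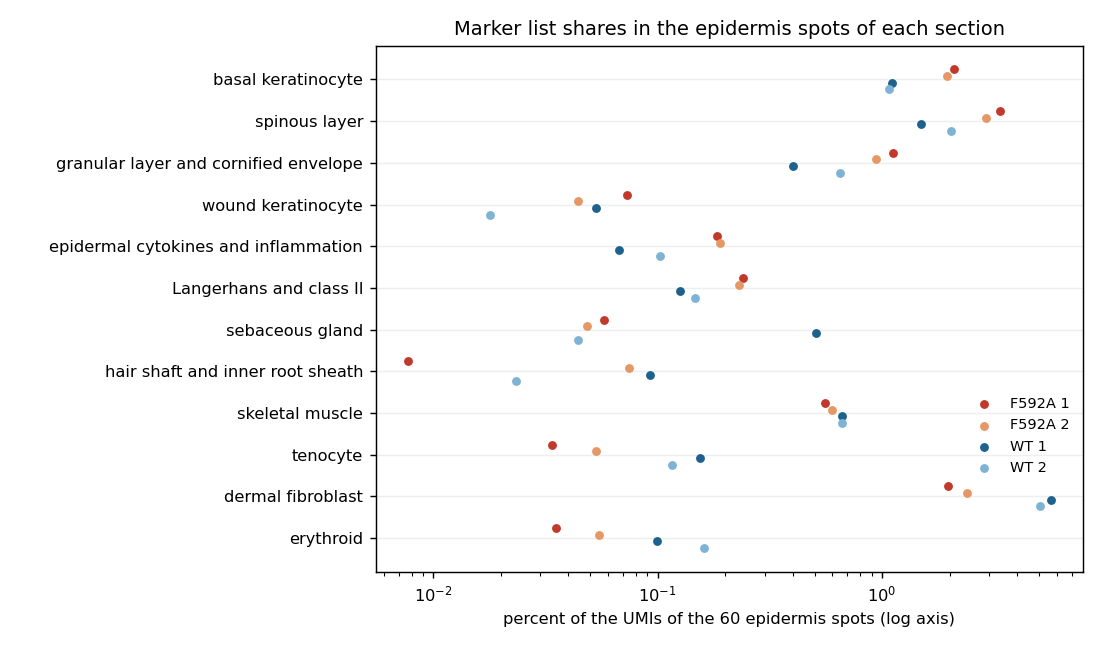
Share of member UMIs (log axis) from 12 marker lists, with 1 point per section. Keratinocyte lists other than the wound list lie higher in both F592A sections, fibroblast, tenocyte and erythroid lists lie higher in both WT sections, and the sebaceous list is high in WT 1.

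Among the genes that fell in F592A were genes of dermis, tendon, slow muscle and blood. Of the adipocyte list only Car3 passed, while Fabp4 and Cfd were lower and did not pass. Col1a1, the main collagen of dermis and tendon, had 8131 and 10103 CPM in F592A, against 32573 and 27640 CPM in WT, a log2 fold change of −1.72 ± 0.23 (edgeR, adjusted p = 0.0201). Dcn had 577 and 546 CPM, against 1846 and 1818 (−1.70 ± 0.26, adjusted p = 0.0317), and Col1a2 also passed. Of 8 fibroblast genes, 7 had a lower value and 3 passed, with a median of −1.10. The tendon genes Tnmd and Fmod passed, Tnmd with 54.1 and 43.5 CPM in F592A, against 387 and 313 in WT (−2.84 ± 0.33, adjusted p = 0.0124), and all 5 tenocyte genes tested had lower values with a median of −2.02. Igf1, a growth factor of fibroblasts and other mesenchymal cells, had 96.5 and 67.9 CPM, against 629 and 726 (−3.04 ± 0.32, adjusted p = 0.0124). Myh7, the slow muscle myosin, had 11.6 and 12.2 CPM, against 154 and 105 (−3.42 ± 0.42, adjusted p = 0.0132), and Hba-a1, an alpha globin with a near-identical partner, 19.3 and 17.4, against 83.5 and 167 (−2.73 ± 0.45, adjusted p = 0.0333). The remaining genes named by the rule were Bicc1, Crispld2, Gpx3, Ecrg4, Zfhx3, Lars2 and Trps1, with log2 fold changes from −3.20 (Bicc1) to −2.25 (Trps1). Some of the genes that fell were lower in F592A outside the epidermis spots too. Myh7 had 62.9 and 71.5 CPM in the rest of F592A, against 358 and 360 in the rest of WT (interaction −0.90 ± 0.49, edgeR, adjusted p = 0.658). Tnmd had 732 and 373 CPM there, against 1292 and 1401 (−1.38 ± 0.40, adjusted p = 0.0592). The log2 difference in the rest was −0.99 for Igf1, −0.97 for Fmod and −0.26 for Col1a1.

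A transcript tied to ribosomal RNA and a gene of mitochondrial translation moved with the group as well. Gm42418, a transcript that overlaps ribosomal RNA, had 8289 and 9071 CPM in the members of F592A, against 30305 and 39731 CPM in those of WT (−2.01 ± 0.23, edgeR, adjusted p = 0.0124). In the fit with the rest of the sections it had 7471 and 8056 CPM in members of F592A, against 24326 and 33566 in those of WT, and 7567 and 8452 CPM in the rest of F592A, against 7714 and 8454 in the rest of WT (interaction −1.87 ± 0.44, adjusted p = 0.00597). Lars2, a mitochondrial tRNA ligase, moved the same way, with 902 and 950 CPM in members of F592A, against 3350 and 5915 in those of WT (−2.32 ± 0.32, adjusted p = 0.0201). Both were thus high in the summed WT epidermis spots and near a common level in the rest of each section. In Krt77-led spots Lars2 had 768 and 921 CPM (without TMM scaling) in F592A, against 616 and 3681 in WT. The Krt2-led spots of WT 1 had 3875 CPM. Its log2 fold change in Krt77-led spots was −1.33 ± 0.53 (edgeR, adjusted p = 0.563). Whether these 2 genes reflect RNA quality was not tested. Nor was their part, or that of the mitochondrial share given above, in the other differences.

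The declines also moved with the tissue in the spots. The fibroblast list made up the shares given above, tenocyte genes 0.0338% and 0.0529% of UMIs in F592A, against 0.154% and 0.115% in WT, and erythroid genes 0.0353% and 0.0550%, against 0.0989% and 0.161%. All markers of the fibroblast list had UMIs in each section. Fast skeletal muscle genes gave 0.557% and 0.601%, against 0.661% and 0.662%, and none of 8 passed. Among spots scoring 2 to 3% no gene passed, with 281 at an unadjusted p under 0.05 in a set of 64, 36, 22 and 26 spots. There Col1a1 had a log2 fold change of −0.76, Igf1 −1.67 and Tnmd −1.96. In Krt77-led spots 5 genes passed and all were lower in F592A. They included Krt2, which helped to define these spots, and the muscle genes Hspb7, Tnnt1 and Myh7, named after their values were seen. The part of the epidermal score, the depth and the underlying dermis in the group differences was not tested. Many of the 32 calls were lost without F592A 1 or without F592A 2 and thus also depend on that section. All 32 genes kept their direction when any 1 section was left out. A fit without 1 WT section takes its spread from the F592A sections alone, so calls kept there do not add to those of the full fit. The F592A sections differed less from each other than the WT sections did (chi-square per degree of freedom 1.79, against 3.86).

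**Figure D5:**
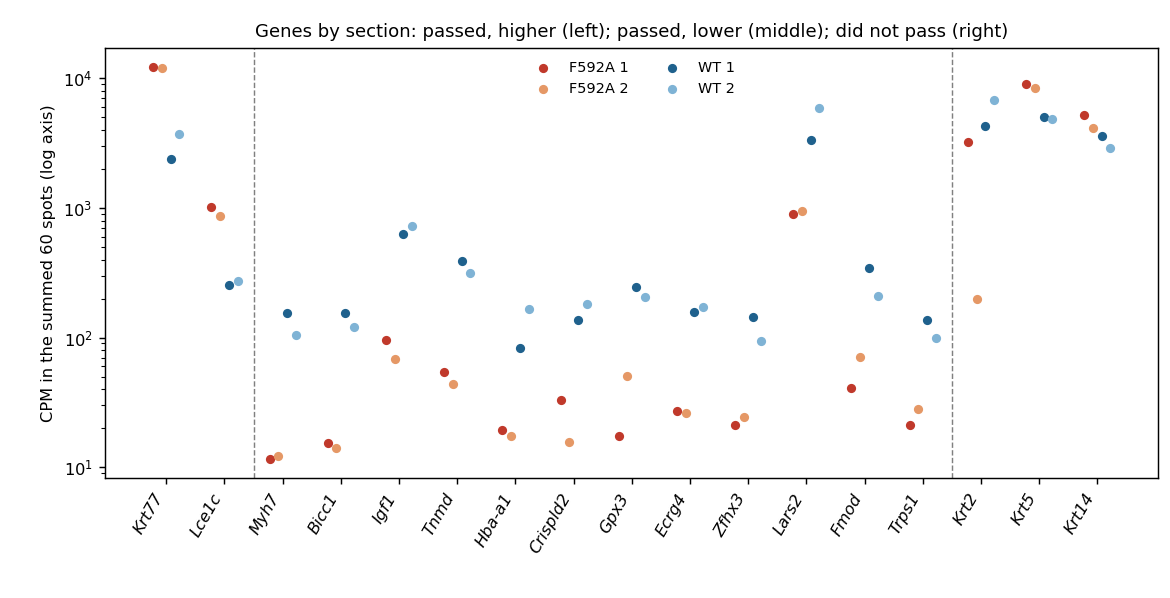
CPM (log axis) in the summed epidermis spots of each section for the genes named by the rule and for Krt2, Krt5 and Krt14, with dashed lines between those that passed and were higher in F592A, those that passed and were lower, and those that did not pass. Krt77 is at 12162 and 11995 CPM in the F592A sections, and Krt2 differs more within F592A than between the groups.

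A second fit asked whether the F592A over WT difference differed between the epidermis spots and the rest of the same sections. Its p-values rest on a spread shared over genes, as the median prior degrees of freedom were infinite, and not on each gene's own. Of 15299 genes, 141 passed the interaction test (0.922%), 27 with a more positive log2 fold change in the epidermis spots and 114 with a more negative one (0.176% and 0.745%), and 14 of them were among the 32. Since the spots were chosen against the rest, the interaction is read only for genes outside the rule. Those genes are not free of the selection either. The rule genes gave 4.04% and 3.56% of member UMIs in F592A, against 2.06% and 2.60% in WT, and fibroblast shares went the other way. The part of this selection in the interaction was not tested. Bicc1, an RNA-binding protein, had 13.9 and 12.4 CPM in epidermis spots of F592A, against 124 and 102 in those of WT, and 143 and 122 CPM in the rest of F592A, against 149 and 188 in the rest of WT. The interaction was −2.77 ± 0.46 on the log2 scale (edgeR, adjusted p = 2.83e-06). On the positive side stood H2-Ab1, a class II gene, with 675 and 577 CPM in epidermis spots of F592A, against 258 and 313 in those of WT, and 247 and 296 CPM in the rest of F592A, against 530 and 467 in the rest of WT. Its interaction was 2.01 ± 0.36 (edgeR, adjusted p = 3.56e-05). H2-Ab1 was thus higher in F592A in the epidermis spots and lower in F592A in the rest. Few or none of the 141 calls remained without F592A 1 or without F592A 2. A fit without 1 WT section again takes its spread from the F592A sections alone. With the neighbours within 3 steps in place of the rest 18 genes passed, and neither Bicc1 nor H2-Ab1 was among them.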

How the data were processed

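Spatial gene expression was measured on Visium arrays. The software named in the matrices is Space Ranger 1.3.0, per the file headers. The build mm10 and the package Seurat 3 are named, with no role, per the submitters' processing notes. The deposited values are raw UMI counts per gene and spot (32285 genes), with no normalization by the authors. Each section held 30154873 to 43957617 UMIs.

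Spots with at least 1000 UMIs were scored. The 240 members, the 37 gene lists (22 of cell type markers, 15 of pathways) and the tests were chosen with earlier results of these data known. Counts were summed per section, since spots are not replicates, and tested with edgeR 4.0.16 on R 4.3.3 (TMM, filterByExpr, quasi-likelihood, Benjamini-Hochberg, threshold 0.05). CPM values are TMM-scaled, and each SE is the log2 fold change over the root of F. The fit between groups had 2 residual and a median of 8.02 prior degrees of freedom. The interaction used 8 sums with the section as a block. Named genes were up to 12 per direction (6 for the interaction) with the largest change among those that passed with mean log2 CPM of at least 5 and groups not overlapping, filled to 8 (3) by smallest p, up to 4 per list, and a fixed set. Lists are described by counts and medians. Shares were compared by exact permutation. The fits were tested on simulated counts first. Alternatives tried were a replicate block, RLE scaling, DESeq2 1.42.0, omission of the filter, other spot numbers and floors, and gene and section omissions. Python 3.11.15, numpy 2.4.6, pandas 2.3.3, scipy 1.17.1 and matplotlib 3.10.9 were used. Promoters came from RefSeq, which had an entry for Krt77, Krt2 and Flg. Some results the rule for named genes would give are not reported here.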

Additional observations from a re-analysis of the deposited data

Results flagged for a closer look

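For 11 of the genes named by the rule the F592A over WT difference in the epidermis spots and that in the rest of the same sections were apart by the interaction test (edgeR's quasi-likelihood test, adjusted p under 0.05 over 15299 genes). Each value is the log2 fold change in the epidermis spots minus that in the rest. The part of the selection of spots in these values was not tested. With neighbouring spots in place of the rest, H2-Q7 turned its sign, and all the others kept their direction and lost the call. Where the value was positive, it was 2.32 for Atp1b1, a subunit of the sodium pump, 2.30 for Zfp219, 2.22 for H2-Q7 (−0.91 with neighbouring spots in place of the rest), 2.04 for Irf1, an interferon-response factor, and 2.01 for H2-Ab1. Where it was negative, it was −2.98 for Gm10076, −2.89 for Rgs4, −2.77 for Bicc1, −2.72 for Synpo, −2.71 for Adgrf5 and −2.69 for Krt79. Krt79, a keratin of the follicle's infundibulum and the sebaceous duct, had 55.7 and 69.6 CPM in epidermis spots of F592A, against 289 and 132 in those of WT, and 28.3 and 62.1 CPM in the rest of F592A, against 47.1 and 7.66 in the rest of WT. Sebaceous genes were high in WT 1, and their part in the Krt79 value was not tested. Atp1b1 had 115 and 125 CPM in epidermis spots of F592A, against 52.9 and 30.9 in those of WT, and 87.4 and 71.0 CPM in the rest of F592A, against 153 and 123 in the rest of WT.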

How the results depend on the processing

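The count of 32 genes was 349 with no low-count filter, 2 with 30 spots, 435 with 100 spots, 73 by DESeq2, and, in alternatives added after the data were seen, 0 among spots scoring 2 to 3% and 5 in Krt77-led spots. Leaving out 1 section gave 28 to 856. The interaction count of 141 was 33 with 30 spots, 390 with 100 spots, 18 against neighbouring spots, 39 by DESeq2, and 0 to 543 without 1 section. Signs turned for Acta2 with one score floor (0.019), which left only 2 and 10 spots in WT 1 and WT 2, and for H2-Q7 against neighbours (−0.91). They also turned for the F592A minus WT share, in percentage points, of hair genes (0.0169 without F592A 1, 0.0177 without WT 1, but −0.0509 without WT 2, 0.00893 with 30 spots), sebaceous genes (0.00906 without WT 1, −0.456 without WT 2) and skeletal muscle genes (0.321 among spots scoring 2 to 3%). With one score floor 44.0% of calls were higher in F592A, with no filter 28.7%, by DESeq2 31.5% and in the reported fit 9.38%. Sections with the same number did not deviate together (r = −0.0633 over 6955 genes), so the numbers do not pair them, and a replicate block gave 43 calls. The cause of these changes was not tested. In simulated counts the fit between groups recovered 10% of 2-fold and 79% of 4-fold changes, and the interaction 9% and 60%. With 2 sections a group and 213127 to 574706 UMIs in their members, most 2-fold differences may thus be missed.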

Other observations

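Some gene lists have not been described above. The T cell list gave 0.0156% and 0.0104% of UMIs in epidermis spots of F592A (83 and 60 UMIs), against 0.00268% and 0.00704% in those of WT (7 and 15 UMIs), and the 1 gene tested, Trdc, the constant part of the delta chain carried by the gamma-delta T cells of mouse epidermis, had a log2 fold change of 1.29 and did not pass. Macrophage genes (4 of 5 lower, median −0.80), Schwann cell genes (4 of 4 lower, −0.92), genes of sterol synthesis (8 of 10 lower, −0.53) and the 3 tested genes for outer root sheath (−1.22) had no call. The macrophage median turned to 1.09 among spots scoring 2 to 3% and to 0.35 in Krt77-led spots. The 3 adipocyte genes had a median of −1.73, which was 0.29 without WT 1, and the Schwann median was 0.81 without WT 1. Circadian clock genes (7 of 9 higher, 0.33), immediate early genes (12 of 15, 0.28), desmosome genes (9 of 11, 0.48) and junction genes (5 of 8, 0.27) had none either. The 1 gene tested for endothelium, Pecam1, had −0.93, and the 1 for mast cells, Mcpt4, −0.89. The 7 hair genes tested were all lower with a median of −0.56, which was 1.36 without WT 1, and the 2 sebaceous genes had −2.39, which was 3.11 without WT 1. The wound list (4 tested) had a median of 0.05, which was 1.35 among spots scoring 2 to 3%, 1.64 without WT 1 and −0.46 without WT 2. Red blood cell genes (4 of 4 lower, −2.65, Hba-a1 called), fast muscle genes (7 of 8 lower, −0.26) and neurotrophin genes (3 tested, 0.17) complete the lists, beside a median of −0.01 over all genes tested.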
